A study of Mus musculus with 6 samples.

Results

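The mRNAs of 7 enzymes of haem synthesis were followed in mouse liver. They were chosen by name, as the rows of the count table whose symbol is Alas1, Alad, Uros, Urod, Cpox, Ppox or Fech, and make up 7 of its 56674 rows. All 7 passed the filter on low counts. Each stood on a single row of the table.

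Liver was taken from male C57BL/6 mice reared for 71 weeks. Of the 6 libraries, 3 came from mice on normal chow and 3 from mice whose chow contained polyethylene microplastic (PE-MP), and the study asked what prolonged intake of the plastic does to hepatic gene expression. The sources used here give neither the dose nor the size of the particles, and do not say whether each library came from a separate animal. The p-values therefore rest on the spread among these libraries alone, and that spread may be technical.

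Haem is the iron-containing ring carried by cytochromes, catalase and haemoglobin. Its synthesis starts in the mitochondrion, where Alas1 joins glycine to succinyl-CoA. It goes on in the cytosol with Alad, Uros and Urod, and returns to the mitochondrion with Cpox, Ppox and Fech, which puts iron into the finished ring. The liver is the largest site of haem synthesis outside the bone marrow and uses much of its haem for cytochrome P450 enzymes. There the step of Alas1 limits the rate, and haem itself lowers the amount of this enzyme. Red cell precursors use a separate gene, Alas2.

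The genes lie on chromosome 9 (Alas1), 4 (Alad and Urod), 7 (Uros), 16 (Cpox), 1 (Ppox) and 18 (Fech). RefSeq promoter windows on build GRCm38.p6, from 250 bases before to 50 bases after an annotated start, were present for 6 of the 7 genes, in 9 windows. The stretches of 30 bases below are shown because they hold short motifs that set members apart from each other or recur among them. Capitals mark the motif on either strand. The motifs searched were the palindromic consensus of NRF1, a regulator of nuclear genes of the mitochondrion; CACGTG for the E-box, which clock and other helix-loop-helix factors bind; GATAAG for GATA factors; and CCAAT for the CCAAT box. The GC box (GGGCGG), the TATA box (TATAAA) and the antioxidant response element (TGACNNNGC) were searched as well, on both strands like the others.
Alas1, NRF1 letters, chr9:106247906-106247935, minus strand: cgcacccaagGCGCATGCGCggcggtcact
Alas1, NRF1 letters, chr9:106247935-106247964, minus strand: gcttcggcgcGCGCGTGCGCgcggcaggcc
Uros, NRF1 letters, chr7:133709323-133709352, minus strand: cggtcacactGCGCCTGCGCgagtcccgcc
Alad, E-box, chr4:62520151-62520180, minus strand: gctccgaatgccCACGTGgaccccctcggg
Alad, E-box, chr4:62519920-62519949, minus strand: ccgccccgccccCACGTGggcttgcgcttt
Urod, E-box, chr4:116994445-116994474, minus strand: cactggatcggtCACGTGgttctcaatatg
Cpox, GATA letters, chr16:58670109-58670138, plus strand: taaagcgcctatCTTATCagtccaagcacc
Cpox, GATA letters, chr16:58670199-58670228, plus strand: gcagggtgcagtCTTATCtgctctttccgg
Ppox, CCAAT box, chr1:171281243-171281272, minus strand: atccagagctcaCCAATccagaacccgcac

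The NRF1 letters stood at 2 of the 6 genes, Alas1 and Uros, and in 4.6% of the 32851 promoter windows of the same length. The windows of Alas1 overlap and hold the same pair of sites, so that the 3 windows with a match are not separate sites. The E-box stood in 4 windows, belonging to Alad, Urod and Uros, against 7.15% of all windows. GATA letters stood in 2 windows, of Cpox and Uros, against 7.44%. The CCAAT box stood in 4 windows, of Alad, Urod and Ppox, against 37.4%. The GC box stood in 6 windows, of 5 genes, against 35.7%. The windows of Alad overlap too and share a CCAAT box and GC boxes, so the windows with these motifs are not all separate sites. The TATA box and the antioxidant response element stood in 0 windows, against 13.6% and 12.4%. A match is a run of letters and was not tested as a binding site.

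Levels were read as CPM (read counts relative to library size), scaled by the TMM factors of edgeR, and for comparison between genes as CPM per kb of annotated exon. Under normal chow Alad stood highest, at 71.9 ± 17.8 CPM per kb, followed by Alas1 at 52.0 ± 27.6 (SD, n = 3). Urod at 29.9 ± 5.02 and Cpox at 26.8 ± 11.2 CPM per kb came next, then Fech at 12.2 ± 0.760, Ppox at 2.47 ± 0.419 and Uros at 1.28 ± 0.199 (SD, n = 3). Under normal chow the ranges of Alad (51.4 to 82.9 CPM per kb) and Alas1 (26.8 to 81.5) overlapped. Within each normal chow library Alad nevertheless stood above Alas1, narrowly so in library 3. Urod (24.5 to 34.3 CPM per kb) and Cpox (14.9 to 37.1) overlapped as well, and their order differed between normal chow libraries. Under PE-MP chow the order at the top was the other way round. Alas1 ranged from 64.7 to 86.0 CPM per kb and Alad from 45.9 to 58.2, without overlap. The other levels were Cpox at 26.2 ± 3.50, Urod at 24.2 ± 0.350, Fech at 11.4 ± 0.604, Ppox at 3.19 ± 0.263 and Uros at 1.48 ± 0.189 CPM per kb (SD, n = 3), each below Alad. The order depends on the length used. Per kb of the longest transcript, Alas1 had a higher mean than Alad under normal chow too, at 94.5 ± 50.1 against 76.1 ± 18.8 CPM per kb (SD, n = 3). Their ranges overlapped, at 48.7 to 148 and 54.4 to 87.7 CPM per kb. Both lowest values came from the same library, in which Alad was above Alas1. By that length Cpox was not below Alad under PE-MP chow, at 56.3 ± 7.52 against 55.6 ± 6.59 CPM per kb (SD, n = 3).

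None of the 7 enzymes passed the test between chows (edgeR quasi-likelihood test, Benjamini-Hochberg adjusted over all 18043 genes tested). The call rate over all genes was 0.00554% (1 gene), so a count of 0 is not a result about these enzymes. At an unadjusted p under 0.05 there were 0 members as well, against 17.9% of all genes, and for 0 members did the chows part completely in scaled CPM, against 26% of all genes. Of the log2 fold changes of PE-MP chow over normal chow, 3 were above 0 and 4 below, with a median of -0.03 beside 0.02 over all genes. DESeq2 called 0 members, with 6.59% of all genes called, and limma-voom called 0, with 0.105%.

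Alas1 stood at 295, 165 and 503 CPM in normal chow libraries 1, 2 and 3, and at 400, 439 and 531 CPM in PE-MP chow libraries 1, 2 and 3. Normal chow library 2 was the lowest of all, and normal chow library 3 lay among the PE-MP chow libraries. The means were 321 ± 170 and 456 ± 67.6 CPM (SD, n = 3), and the log2 fold change was 0.51 ± 0.38 (SE; edgeR adjusted p = 0.519). Its 95% interval ran from -0.42 to 1.43, so that both no change and a log2 change of 1 lay inside it. Alas1 was the member whose difference moved most with the libraries used. On the log2 scale it came to 0.19 when normal chow library 2 was left out and to 0.99 when library 3 of that chow was.

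Alad, which joins pairs of the Alas1 product into porphobilinogen, went towards lower levels. It measured 152, 96.2 and 155 CPM in normal chow libraries 1, 2 and 3, and 85.8, 100.2 and 109 CPM in the PE-MP chow libraries. Only normal chow library 2 reached into the PE-MP chow range. The log2 fold change was -0.45 ± 0.21 (SE; edgeR adjusted p = 0.310), with a 95% interval from -0.95 to 0.04. Without normal chow library 2 Alad was the 1 member called, at a log2 fold change of -0.65 (edgeR adjusted p = 0.0479), in a fit that called 3.27% of all genes lower. That fit has 2 normal chow libraries.

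Uros closes the linear precursor into the ring and was the least abundant member. Its counts, 257 to 588 per library, gave 4.05, 4.28 and 5.38 CPM under normal chow and 4.55, 5.87 and 5.47 CPM under PE-MP chow. The chows overlapped, and the difference was 0.21 ± 0.19 on the log2 scale (SE; edgeR adjusted p = 0.592).

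Urod, which trims the side chains of the ring, was at 89.0, 63.4 and 80.2 CPM under normal chow. The PE-MP chow libraries lay close together at 62.2, 63.8 and 62.3 CPM. Normal chow library 2 fell inside that narrow range and the other normal chow libraries above it. The log2 fold change was -0.30 ± 0.14 (SE; edgeR adjusted p = 0.322), and -0.43 without normal chow library 2 (adjusted p = 0.0548).

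Cpox, the first of the late mitochondrial enzymes, varied widely under normal chow, at 99.2, 188 and 247 CPM, and less under PE-MP chow, at 175, 197 and 151 CPM. The PE-MP chow libraries all fell between the extremes of normal chow. The log2 fold change was -0.03 ± 0.32 (SE; edgeR adjusted p = 0.967), and its sign differed between alternatives.

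Ppox oxidises the ring to protoporphyrin and had the smallest p among the members. It measured 13.3, 10.3 and 9.82 CPM under normal chow and 14.6, 13.1 and 15.5 CPM under PE-MP chow. Normal chow library 1 lay just above the lowest PE-MP chow library, and the other normal chow libraries lay below all of them. The log2 fold change was 0.37 ± 0.16 (SE; edgeR adjusted p = 0.296), with a 95% interval from -0.02 to 0.76. Its exons share 791 bases, 17.5% of their length, with B4galt3 on the opposite strand, and the strand setting of the counting is not known here. The shared exon bases were 7.53% for Alas1 (with an antisense gene) and 3.06% for Cpox (with Gpr15).

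Fech was the steadiest. It stood at 157, 170 and 178 CPM under normal chow and at 148, 162 and 163 CPM under PE-MP chow. The log2 fold change was -0.10 ± 0.11 (SE; edgeR adjusted p = 0.671), with a 95% interval from -0.36 to 0.16. Fech was the 1 member whose whole interval lay within 0.5 log2 units of no change, and for 6 members, all but Alas1, it lay within 1 unit.

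**Figure D1:**
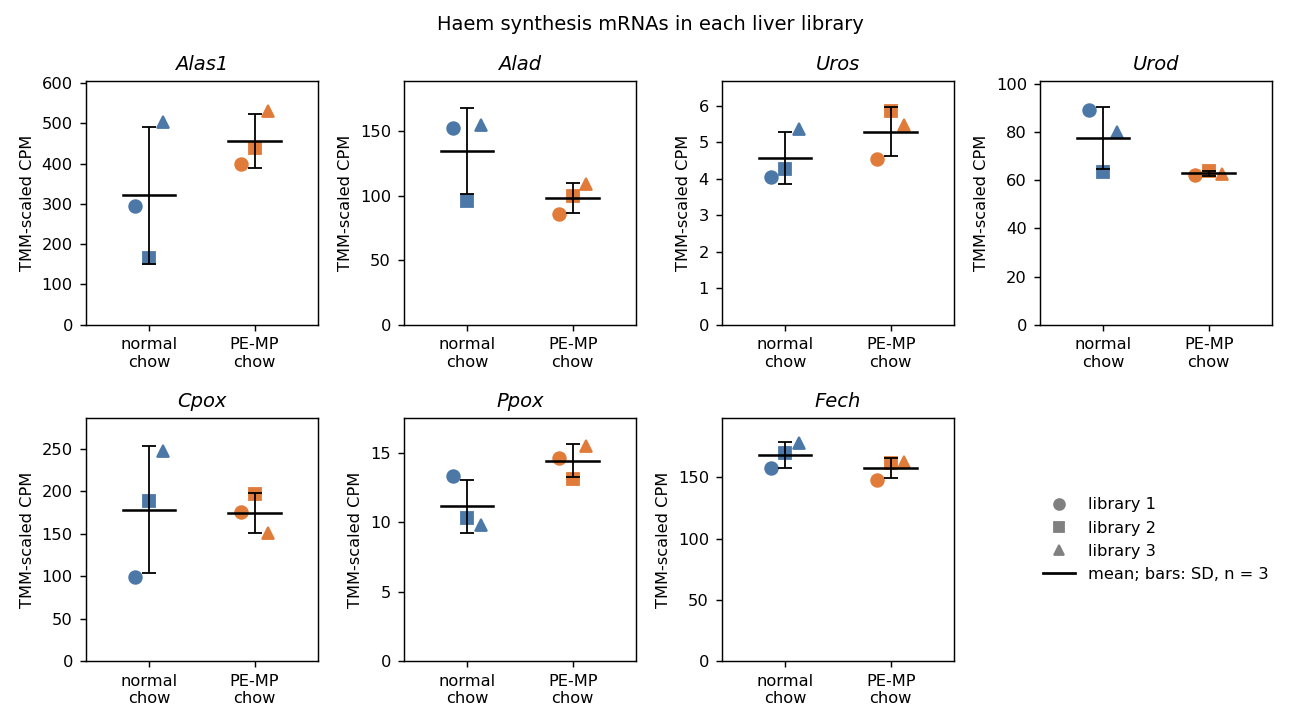
Scaled CPM (vertical axis, from 0) of the 7 genes in pathway order, by chow, with each library as a point, the mean as a line and the SD as a bar (n = 3). Alas1 spans 165 to 503 CPM under normal chow alone, while Fech stays between 148 and 178 CPM in all 6 libraries.

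The members differed from each other in how much they varied between libraries of 1 chow. The highest normal chow library exceeded the lowest 3.04-fold for Alas1, 2.49-fold for Cpox, 1.61-fold for Alad and 1.13-fold for Fech. The biological coefficient of variation that edgeR estimated, which describes the spread within chows, was 34.2% for Alas1 and 29.4% for Cpox, but 17.6% for Urod and 15.3% for Fech. Over all tested genes, 67.9% varied as little as Alas1 or less, and 0.565% varied as little as Fech or less. The genes compared were not matched for expression level. This ratio of highest to lowest was larger under normal chow than under PE-MP chow for all 7 members. The same held for 67.8% of all genes, and a difference in spread was not tested.

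The scaling sets where no change lies. The TMM factors were 0.879 to 0.923 for normal chow and 1.07 to 1.17 for PE-MP chow. Mitochondrially encoded rows took 14.9% to 16.4% of counts under normal chow and 9.71% to 10.1% under PE-MP chow. With total counts alone, an alternative added after the data were seen, the median over all genes was 0.32 log2 units rather than 0.02, and all members were shifted upwards with it. The log2 fold changes were then 0.81 for Alas1, 0.67 for Ppox, 0.52 for Uros, 0.27 for Cpox, 0.21 for Fech, -0.01 for Urod and -0.15 for Alad. On that scale Ppox had an edgeR adjusted p of 0.0914 and none of the 7 passed. In unscaled CPM the chows did not overlap for 2 members, both higher under PE-MP chow, and the same held for 34.6% of all genes. These were Ppox, at 8.84 to 12.3 and then 14.3 to 18.1 unscaled CPM, and Uros, at 3.74 to 4.84 and then 4.87 to 6.40.

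**Figure D2:**
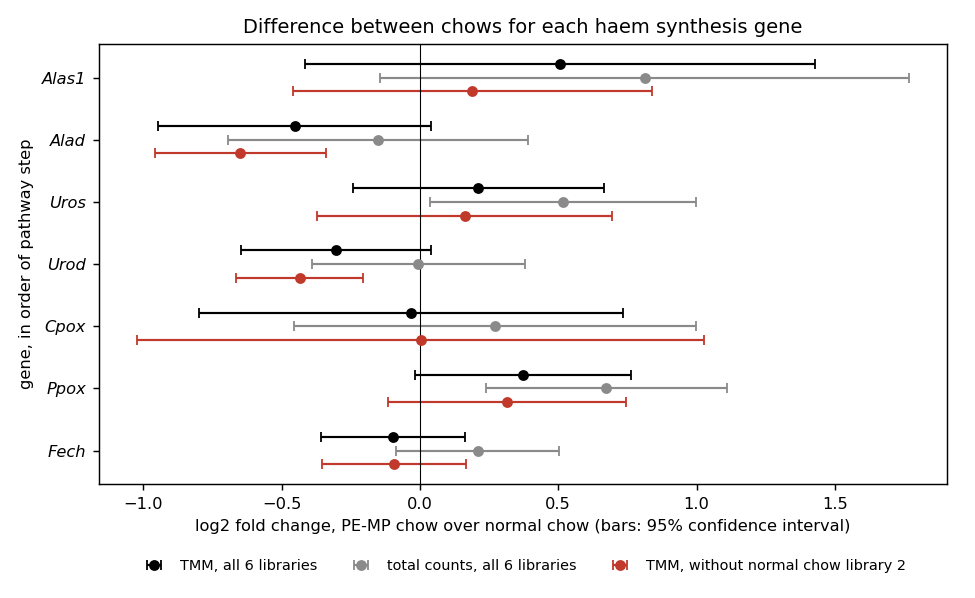
Log2 fold change of PE-MP chow over normal chow (horizontal axis) for each gene in pathway order, with 95% confidence intervals, from 3 fits. With TMM factors and all libraries each interval spans 0. Total counts shift every gene to the right, with the intervals of Uros and Ppox above 0, and without normal chow library 2 the intervals of Alad and Urod lie below 0.

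Ratios between members within a library need no scaling factor. Of the 21 pairs of members, 7 had ratios that did not overlap between chows, and the other 14 overlapped. The 7 are reported because of that, as a description. Alas1 counts were 1.94, 1.72 and 3.24 times those of Alad in normal chow libraries 1, 2 and 3, and 4.66, 4.38 and 4.88 times in the PE-MP chow libraries. Every PE-MP chow library lay above every normal chow library, and the ratio was 2.10-fold higher. The ratio of Alas1 to Urod behaved alike, at 3.32, 2.61 and 6.28 under normal chow and 6.43, 6.87 and 8.52 under PE-MP chow. In the ratio of Urod to Ppox the order was reversed, from 6.69, 6.16 and 8.16 to 4.26, 4.86 and 4.02. The remaining pairs were Alad to Uros, Alad to Ppox, Uros to Urod and Uros to Fech. For these 7 pairs the exact permutation p was 0.1 (two-sided, n = 3 per chow), the smallest that the design allows, and 0.3 when adjusted over the 21 pairs. That p follows from the lack of overlap by which the pairs were picked, and adds no evidence to it. Of the 6 pairs of each member, 2 did not overlap for Alas1, 3 for Alad, 3 for Uros, 3 for Urod, 0 for Cpox, 2 for Ppox and 1 for Fech. Against all other tested genes, the share of ratios that did not overlap was 19.8% for Alas1, 24.3% for Alad, 24.0% for Uros, 29.7% for Urod, 9.15% for Cpox, 35.5% for Ppox and 24.7% for Fech. With 6 pairs per member, and each pair counted for both of its genes, the counts are too coarse to set any member apart from its background.

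**Figure D3:**
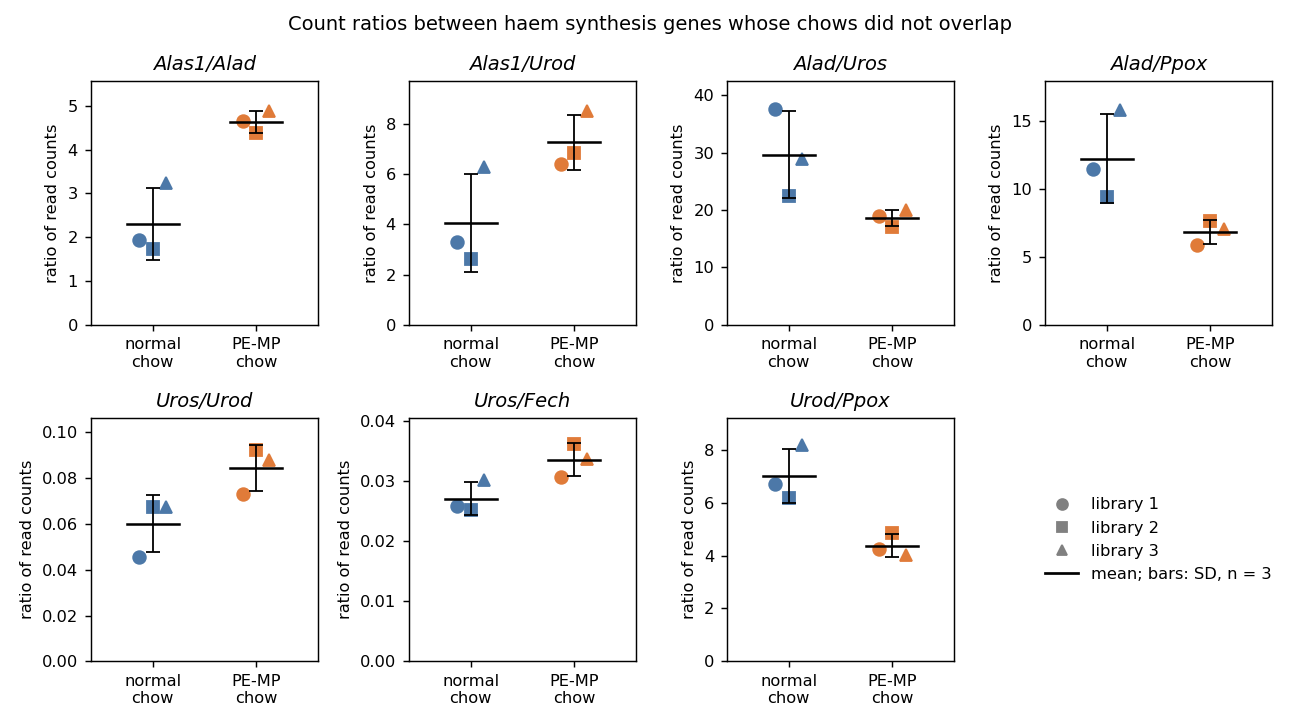
Ratio of read counts (vertical axis, from 0) for the 7 pairs of haem synthesis genes whose chows did not overlap, 1 point per library, with mean and SD (n = 3). The Alas1 to Alad ratio lies between 1.72 and 3.24 under normal chow and between 4.38 and 4.88 under PE-MP chow.

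Alas2, the red cell form of the starting enzyme, was also present. It measured 75.6, 67.3 and 77.9 CPM under normal chow and 56.2, 61.5 and 59.3 CPM under PE-MP chow. The chows did not overlap, and the difference was -0.32 ± 0.11 on the log2 scale (SE; edgeR adjusted p = 0.213). With total counts the log2 fold change was -0.02, so this difference depends on the scaling. The erythroid markers Slc4a1, Epb42, Ermap and Gata1 were under the filter, with at most 10 counts in any library. The beta globin Hbb-bs went the other way from Alas2, at 112, 60.0 and 122 CPM under normal chow and 177, 183 and 129 CPM under PE-MP chow (log2 fold change 0.74; edgeR adjusted p = 0.252), as did Hbb-bt (log2 fold change 0.79; edgeR adjusted p = 0.260). The alpha globins overlapped between chows, with Hba-a1 at 59.4 to 141 and then 107 to 155 CPM and Hba-a2 at 54.2 to 130 and then 98.0 to 134 CPM. Klf1, a red cell transcription factor, overlapped too, at 0.166 to 1.501 and then 0 to 0.488 CPM. Alas2 counts were 0.641 to 1.12 times those of Hbb-bs under normal chow and 0.317 to 0.458 times under PE-MP chow. Relative to Hbb-bt they did not overlap between chows either, but relative to Hba-a1 and to Hba-a2 they did. Hbb-bs was picked after its values were seen, and the share of such ratios over all genes was not computed for Alas2. Exons of Alas2 share 12.9% of their length with Apex2 on the opposite strand.

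Around the pathway, 62 genes in 5 lists were read from the same fit, and none passed the adjusted threshold (smallest adjusted p 0.128). At an unadjusted p under 0.05, 13 were lower under PE-MP chow, or 21.0%, against 8.82% of all genes, and 2 were higher, or 3.23%, against 9.1%. The lists were chosen with earlier results of these data known, and all genes were not matched to them for expression level. The shares are therefore a description and no support for a shift of haem-related genes. The chows did not overlap for 13 lower genes (21.0%) and 3 higher ones (4.84%), against 11.8% and 14.2% of all genes. The median log2 fold change of the 62 was -0.24 beside 0.02 over all genes. With total counts it was 0.07 beside 0.32. At an unadjusted p under 0.05, 3 of the 62 were then lower, against 2.18% of all genes, and 10 of the 62 higher, against 25.2%. On this scale too the share lower was above that of all genes, and the share higher below it. The sign of the median of the 62 thus depends on the scaling. On both scales that median lay below the one over all genes. DESeq2 called 5 of the 62, all lower, and called 3.48% of all genes lower. Without normal chow library 2 edgeR called 13, all lower, in the fit that called 3.27% of all genes lower.

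Carriers and haem transporters held 18 genes, of which 15 had negative values (median -0.24) and 4 were lower at an unadjusted p under 0.05. Abcg2, which exports porphyrins from cells, went from 66.2 ± 11.8 to 36.2 ± 8.16 CPM (SD, n = 3), a difference of -0.87 ± 0.21 on the log2 scale (SE; edgeR adjusted p = 0.139). Slc48a1, which moves haem out of the lysosome, was at 72.2 ± 11.7 and 49.3 ± 1.56 CPM (SD, n = 3; log2 fold change -0.55, edgeR adjusted p = 0.152). In both genes every PE-MP chow library lay below every normal chow library. The smallest p on the higher side belonged to the mitochondrial iron importer Slc25a37 (log2 fold change 0.20) and the haem exporter Flvcr1 (0.19), with edgeR adjusted p of 0.582 and 0.786.

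Haem breakdown and scavenging held 8 genes with a median of -0.16, and its members pointed both ways. Hmox1, which opens the haem ring, was at 12.5, 10.9 and 12.8 CPM under normal chow and 15.1, 15.1 and 14.4 CPM under PE-MP chow (log2 fold change 0.30, edgeR adjusted p = 0.274). Cd163, the haemoglobin receptor of macrophages, was at 4.30, 1.23 and 3.42 CPM and then 6.73, 6.46 and 4.73 CPM (log2 fold change 0.9995, edgeR adjusted p = 0.299). Blvrb, a biliverdin reductase, was at 206, 168 and 219 CPM and then 122, 113 and 130 CPM (log2 fold change -0.70, edgeR adjusted p = 0.128). For all 3 the chows did not overlap. Hpx, the plasma protein that binds free haem, overlapped between chows (log2 fold change -0.26, edgeR adjusted p = 0.436). Hmox1 and Cd163 are also macrophage genes, and all 7 Kupffer cell markers had positive values. Values were also positive for 6 of 6 sinusoidal endothelial and 7 of 8 hepatocyte markers. They were positive for 1 of 5 stellate, 2 of 4 cholangiocyte, 0 of 4 B and plasma, and 1 of 4 T and NK cell markers. The summed level of the Kupffer cell markers ran from 96.8 to 127.1 CPM under normal chow and from 127.2 to 221 CPM under PE-MP chow, and none was at 0. Its part in the values of Hmox1 and Cd163 was not tested. In bulk liver, more cells of a type and more RNA per cell cannot be told apart.

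Among 13 genes listed for the control of Alas1 transcription or turnover, the median was -0.04, with 6 positive and 7 negative values. Whether each of them acts on Alas1 in these livers was not tested. Bach1, the haem-sensing repressor, was at 18.3, 25.5 and 24.2 CPM under normal chow and 27.6, 34.8 and 41.3 CPM under PE-MP chow, without overlap (log2 fold change 0.61 ± 0.20, SE; edgeR adjusted p = 0.200). Nr1d2, a nuclear receptor of the clock that haem binds, differed by 0.66 ± 0.34 on the log2 scale (SE; edgeR adjusted p = 0.359). On the lower side were Clpp, a subunit of the mitochondrial protease that degrades Alas1 (-0.38, edgeR adjusted p = 0.248), and Rxra, the partner of the xenobiotic receptors (-0.48, edgeR adjusted p = 0.311). The chows overlapped for Nr1d2, Clpp and Rxra.

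The 15 haem proteins of the hepatocyte and their partners had a median of -0.31, with 11 negative values. Cyp2b10, an inducible P450, was at 10.6, 3.23 and 7.83 CPM under normal chow and 1.999, 0.830 and 1.43 CPM under PE-MP chow (log2 fold change -2.34 ± 0.51, SE; edgeR adjusted p = 0.135). Cyp2c29, a far more abundant P450, was at 1574 ± 201 and 1125 ± 25.9 CPM (SD, n = 3; log2 fold change -0.48, edgeR adjusted p = 0.168). Neither overlapped between chows. On the higher side the smallest p belonged to Cyp7a1, the rate-limiting enzyme of bile acid synthesis, and to Por, the reductase that feeds electrons to P450 enzymes. Their log2 fold changes were 0.57 and 0.32 (edgeR adjusted p = 0.519 and 0.773), and Por ranged from 97.3 to 422 CPM within normal chow.

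For the substrates of Alas1, 8 genes of succinyl-CoA and glycine metabolism were read, with a median of -0.25. The subunits of succinyl-CoA ligase Suclg2 (log2 fold change -0.47, edgeR adjusted p = 0.192) and Suclg1 (-0.39, edgeR adjusted p = 0.276) had the smallest p. Suclg2 stood at 271 to 364 CPM under normal chow and 207 to 245 CPM under PE-MP chow, without overlap. The serine hydroxymethyltransferase Shmt1 was at 0.26 and the oxoglutarate dehydrogenase Ogdh at 0.11 on the log2 scale, with edgeR adjusted p of 0.393 and 0.691.

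**Figure D4:**
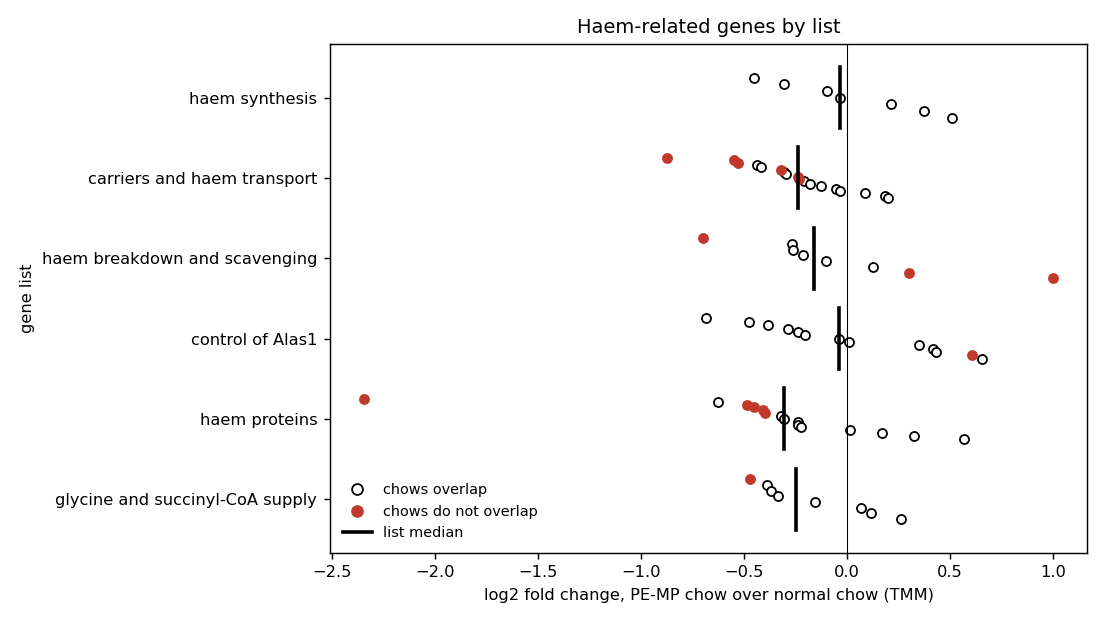
Log2 fold change of PE-MP chow over normal chow (horizontal axis) for the 7 haem synthesis genes and the genes of 5 related lists, 1 point per gene, filled where the chows do not overlap, with the list median as a bar. No haem synthesis gene is filled, and the medians of the other lists lie between -0.31 and -0.04.

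The genes whose log2 CPM was most like that of Alas1 over the 6 libraries were Sult1a1, Mrgprb11-ps, Gbp11, Slc22a26 and Gm49368, with Pearson's r from 0.992 to 0.996. In all, 35 genes reached an r of 0.95. With 6 points that share 1 set of libraries, this is a description of the pattern and carries no p.

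Total counts ranged from 68357478 to 112566641 per library. Hepatocyte markers were abundant throughout, with a summed level of 61715 to 75512 CPM. Normal chow library 2 stood apart in its 18S ribosomal RNA row, Rn18s-rs5, which took 11.2% of its counts against 0.334% to 5.98% elsewhere. B and plasma cell markers had 4 of 4 negative log2 fold changes, with a summed level of 16.9 to 52.4 CPM under normal chow and 3.62 to 7.38 CPM under PE-MP chow; their part in the values above was not tested. Normal chow library 2 held the lowest value of its chow for Alas1, Alad and Urod. With that row and the mitochondrial rows left out before scaling, 0 members were called.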

How the data were processed

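Poly(A)-selected RNA of 6 liver libraries was sequenced with a kit that keeps the strand, per the labels. The deposited values are raw read counts per gene, not normalised. The submitters' processing notes name bcl2fastq and, as the build, GRCm39. No source used here gives the aligner, counting program, annotation release or strand setting, so overlapping antisense genes cannot be separated. The table of the whole series equalled all 6 per-library files.

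Chows were compared with edgeR 4.0.16 (R 4.3.3) using robust quasi-likelihood F tests after TMM scaling and filterByExpr, which left 18043 genes. Tests were two-sided and adjusted by Benjamini-Hochberg at 0.05. Standard errors and 95% intervals came from the coefficient and its F statistic. The code was tested on simulated counts. Exon length, GC content and overlaps came from GENCODE M21 (GRCm38), which held 94.8% of tested genes. Promoter windows came from RefSeq and were matched by symbol.

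Alternatives were RLE, upper-quartile and no scaling factors, DESeq2 1.42.0, limma-voom (limma 3.58.1), no filter and a filter asking for CPM 1 throughout a group, omission of each library, the replicate number as a block, rows left out before scaling, an adjusted p of 0.1, and length and GC trends taken out. Scaling by total counts and the length and GC trend were chosen after seeing the data, and ratios between members were added to the fixed tests. The members and gene lists were chosen with earlier results of these data known. Named were all 7 members, Alas2, up to 2 genes per direction with the smallest p in each list and the 5 genes most like Alas1. Hbb-bs and the other tested erythroid markers were named after their values were seen. Counts of whole reads cover counting error only and, without molecular identifiers, are not independent molecules. Some genes of the marker and pathway sets are not reported here.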

Additional observations from a re-analysis of the deposited data

How the results depend on the processing

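Of 17 alternatives, Alas1, Uros, Urod and Ppox kept their direction in all and passed the threshold in none, and Alad kept its direction in all and passed in 1. The log2 fold change of Cpox turned positive with limma-voom (0.057), the replicate block (0.057), total counts (0.27), and without normal chow replicate 2 (0.0033), normal chow replicate 3 (0.28) or PE-MP chow replicate 3 (0.053), and its lowest value with a library left out was -0.33. That of Fech turned positive with total counts (0.21). The cause was not tested. With libraries left out in turn, 0 to 1 members were called, the 1 being Alad without normal chow replicate 2 (log2 fold change -0.65), and the members' median ran from -0.15 to 0.28. With total counts this median was 0.27. Of the 62 related genes, DESeq2 called 5, and edgeR called 0 to 13 with a library left out. Over all genes edgeR called 1, against 3 with RLE factors, 1186 by DESeq2, 19 by limma-voom, 23 with no filter, 22 with the stricter filter, 10 with total counts, 2 with length and GC trends taken out, 53 at an adjusted p of 0.1 and 1 to 1075 with a library left out. The replicate block called 0. The labels do not say that the numbers pair the libraries. Deviations from the group means correlated at 0.0027, 0.04 and 0.14 for libraries 1, 2 and 3. With 3 libraries per chow these values cannot decide whether the libraries are paired. Counts of Uros, 257 to 588 per library, were the lowest among the members.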
